A study of Drosophila melanogaster with 12 samples.

Results

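The insect chemoreceptor genes were followed through the larval central nervous system (CNS) of Drosophila melanogaster WT larvae and of mutants of CTCF or Cp190, which encode chromatin architectural proteins. All genes with a FlyBase symbol of the odorant receptor (Or), gustatory receptor (Gr) or ionotropic receptor (Ir) numbering were taken, which gave 186 of the 17510 genes counted: 60 Or, 60 Gr and 66 Ir genes. Of these, 179 were annotated as protein coding and 7 as pseudogenes. They lay on chromosome arms 2R (52 genes), 3R (43), 3L (35) and 2L (31) and on the X chromosome (25). The question asked was which of them had reads in the WT CNS and which gained or lost reads in either mutant.

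Odorant receptors form ligand-gated cation channels with the shared co-receptor Orco, which carries no number in its symbol and is therefore described apart from the family. Gustatory receptors respond to sugars, bitter compounds, pheromones and, for some members, heat or internal nutrients. Ionotropic receptors descend from ionotropic glutamate receptors and work with the broadly expressed co-receptors Ir8a, Ir25a and Ir76b. Each peripheral sensory neuron typically transcribes a very small choice of receptor genes, and the cell bodies of these neurons lie in the head and body sense organs, not in the dissected CNS.

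Poly(A) RNA was sequenced with strand information from dissected CNSs of larvae at the third instar of the w1118 reference strain (WT), of CTCF0 mutants and of Cp190KO mutants. CTCF0 larvae lacked the zygotic as well as the maternally supplied protein, whereas Cp190KO larvae were transheterozygous for independent knockout alleles and could still hold maternal Cp190. Each library pooled 60 CNSs without regard to sex, each group held 3 biological replicates, and larvae were raised at 25°C. The CTCF0 experiment was read as paired ends and the Cp190KO experiment as single ends on another instrument, each with 3 WT libraries of its own, so each mutant was compared only with its own WT and the 2 comparisons shared no control.

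The libraries held 11652548 to 21522453 reads assigned to genes, so that 3 reads, taken here as the floor of a library, stood for 0.139 to 0.257 CPM, the read count scaled to a common library total. CTCF itself went from 693, 483 and 585 reads in WT to 38, 23 and 39 reads in CTCF0. Cp190 had 963, 399 and 801 reads in WT and 871, 512 and 439 reads in the libraries labelled Cp190KO. The log2 fold change was −0.22 (edgeR adjusted p = 0.81), so these counts did not tell those groups apart. The paper describes Cp190KO as a deletion of the Cp190 open reading frame, and these gene counts did not show such a loss. The genotype of this group therefore rests on its label, also where the text speaks of a mutant. The library labelled Cp190KO replicate 3 stood apart at low counts: 375 genes had 1 to 3 reads there against 1738 to 2199 in each of the other 11 libraries. It had reads on 36 chemoreceptor genes, against 60 to 86 in the others, and 60 of the 96 chemoreceptor genes seen in the other libraries labelled Cp190KO were at 0 there. Counts of low members in that group are therefore given with and without it. WT replicate 3 of the same experiment carried 2843 reads of the ring gland gene phtm, against 85 and 145 in its partners. Because bulk tissue was sequenced, fewer cells of a type and less RNA per cell cannot be told apart.

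Most chemoreceptor genes had few or no reads in WT. More than 3 reads in at least 2 of 3 libraries were found for 29 genes (10 Or, 8 Gr and 11 Ir) in the WT of the CTCF0 experiment and for 33 genes (12 Or, 9 Gr and 12 Ir) in the WT of the Cp190KO experiment. The same rule was met by 55.4% and 56.5% of all genes counted, respectively. The WT controls shared 26 of these genes, and 36 genes met the rule in at least 1 of them. At the other end, 47 chemoreceptor genes had no read in any of the 12 libraries, where a count of 0 allows up to 3 reads in a library, and 116 never exceeded 3 reads. The same rule was met by 37 genes (14 Or, 11 Gr and 12 Ir) in CTCF0 and by 28 (9 Or, 11 Gr and 8 Ir) in the libraries labelled Cp190KO, or 24 without replicate 3. The plot of genes by number of reads in each library shows the library labelled Cp190KO replicate 3 with almost no gene at 1 to 3 reads.

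**Figure D1:**
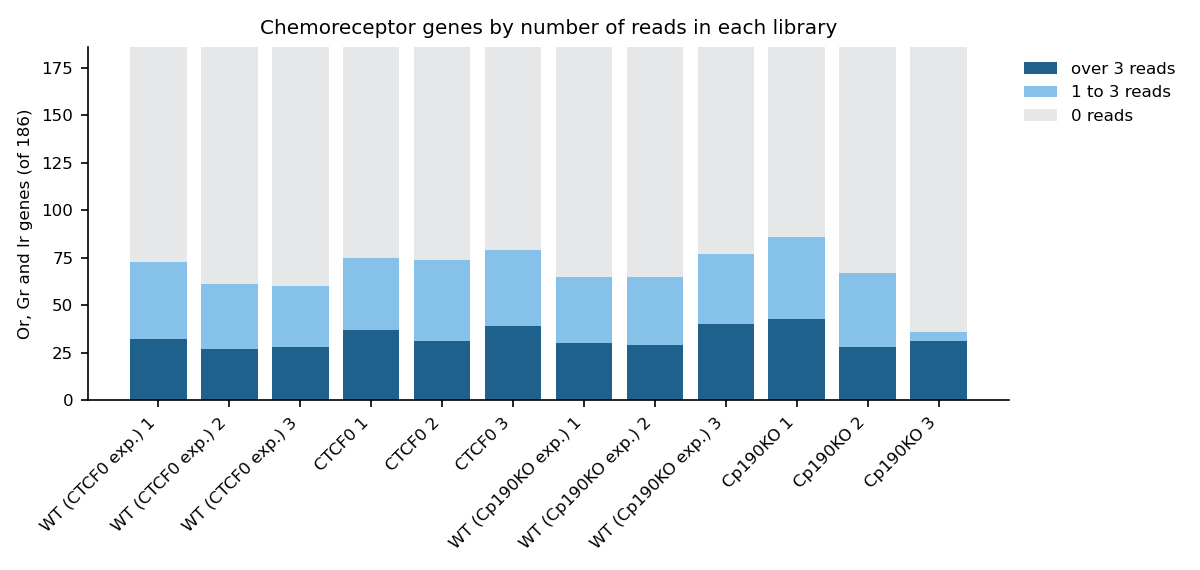
Stacked bars give, for each of the 12 libraries, how many of the 186 Or, Gr and Ir genes (vertical axis) had more than 3 reads, 1 to 3 reads or 0 reads. Genes with any read number 60 to 86 in 11 libraries and 36 in the library labelled Cp190KO replicate 3, of which 5 had 1 to 3 reads.

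The WT level was carried by very few genes. Expressed as CPM per kilobase of exon, which allows genes of different length to be compared, Ir76a, a receptor of antennal coeloconic sensilla that responds to amines, stood at 8.56 ± 1.90 (SD, n = 3) in the WT of the CTCF0 experiment and 6.33 ± 1.80 (n = 3) in that of the Cp190KO experiment. Gr61a, a member of the sugar receptor clade, stood at 8.05 ± 1.5 and 9.31 ± 3.48. These neighbouring levels differed by less than 1 SD in the CTCF0 experiment. Or43b, an antennal odorant receptor, followed at 2.76 ± 0.866 and 1.86 ± 0.284, although 575 bases (40.7%) of its exons are shared with Cul1 on the opposite strand. The median gene tested stood at 13.6 and 12.3 CPM per kilobase in the WT controls, above every chemoreceptor gene.

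Below these genes the levels were close together. Ir62a, inside the gene Iml1, had 1.23 ± 0.158 and 1.07 ± 0.227 CPM per kilobase. Ir51b, inside the gene row, and Ir93a, an ionotropic receptor used in cool and humidity sensing, lay between 0.767 and 0.880 in both controls and did not differ beyond their SDs. The next gustatory genes, Gr94a, Gr32a and Gr47b, lay between 0.398 and 0.723. Gr43a, the fructose receptor also known from the brain, reached 0.368 ± 0.371, an SD as large as its mean, from 6, 14 and 2 reads. Gr66a, a receptor shared by bitter-sensing neurons, reached 0.468 ± 0.204 in the WT of the Cp190KO experiment. Among Or genes, Or85f stood at 0.666 and 0.845, and Or67d, Or13a, Or42b, Or2a and Or22c lay between 0.304 and 0.691 wherever they were among the 5 highest. Ir68a, an ionotropic receptor of humidity sensing, stood at 0.362 and 0.317.

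Detected genes were seldom the clustered ones. Of the 36 genes detected in a WT control, 4 (11.1%) lay within 5 kb of another chemoreceptor gene, against 85 (56.7%) of the 150 that were not detected. The window was chosen after the values were seen and the difference was not tested. Detected genes lay within or overlapped another annotated gene in 14 of 36 cases (38.9%), against 40 of 150 (26.7%). Reads over exons that lie under an opposite-strand gene appeared not to be assigned: of 113 genes of any family lying wholly under such exons, 1 had any read at all. For the 32 chemoreceptor genes that share exonic bases with another gene the counts can therefore be too low, and for Gr64b with Gr64c and Gr10a with Or10a, which share all exons and had no read, a count of 0 carries no information. Close copies such as Or19a with Or19b and Or22a with Or22b may also lose or exchange reads. Genes inside another gene without shared exonic bases, such as Ir62a in Iml1 and Or71a in Plp, may in turn hold reads of that gene. This was not tested.

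In CTCF0 the summed reads on the Or and Ir families were higher than in WT. All chemoreceptor genes together took 52.0 to 72.7 CPM of the reads on genes (before TMM scaling) in WT and 89.9 to 144 in CTCF0. Ir genes took 24.1 to 34.8 in WT and 57.2 to 84.2 in CTCF0, Or genes 9.09 to 12.9 and 13.2 to 33.4, and Gr genes 17.9 to 25.0 and 19.5 to 26.2. The Or and Ir ranges did not overlap between the groups and the Gr ranges did. Without Ir76a, Or67d, Or63a and Gr61a, which together took 51.3% to 74.0% of the reads on chemoreceptor genes in each library, the sums were 22.4 to 30.6 in WT and 23.4 to 47.6 in CTCF0, which overlapped.

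**Figure D2:**
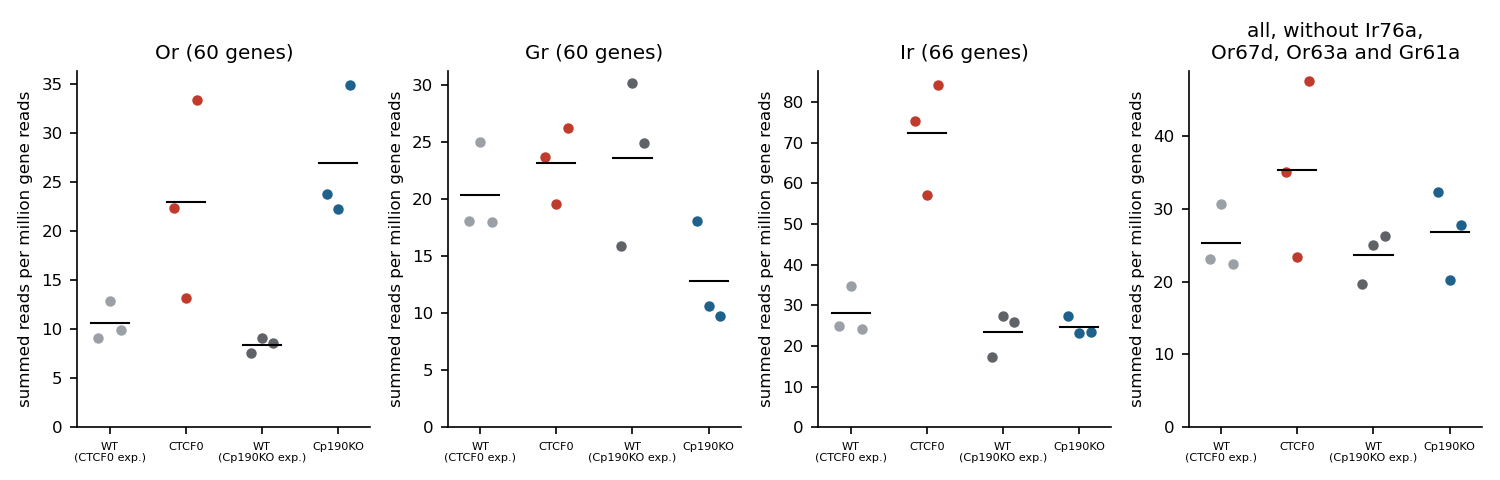
Summed reads on the Or, Gr and Ir families, and on all families without Ir76a, Or67d, Or63a and Gr61a, as CPM of all reads on genes (vertical axis), each point a library and each line a group mean. The Ir points of CTCF0, at 57.2 to 84.2, lie above those of its WT, at 24.1 to 34.8, and the Or points of the libraries labelled Cp190KO, at 22.3 to 35.0, lie above those of their WT, at 7.55 to 9.05.

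Differential expression was called at an adjusted p under 0.05 and a fold change over 1.5 among genes that reached 1 CPM in 3 or more libraries. In CTCF0, 10 chemoreceptor genes entered this test and 2 of them were called, both higher, while 2.81% of all 8718 genes tested were called and 1.93% were called higher. A member such as Or67d passed the 1 CPM filter only through the libraries where it was high, so the 10 tested genes do not stand for the families. Or67d (FBgn0036080, dm6 chromosome 3L, 10273204 to 10274624, plus strand), the receptor of adult neurons for the male pheromone cis-vaccenyl acetate, had 12, 13 and 9 reads in WT and 152, 91 and 211 reads in CTCF0. Every CTCF0 library was above every WT library. Its level went from 0.813 ± 0.267 to 10.4 ± 4.53 CPM (SD, n = 3 each), a 12.7-fold rise with a log2 fold change of 3.69 (standard error 0.418, edgeR adjusted p = 0.00263). In each of the 6 fits that left out 1 library it stayed called, at log2 fold changes of 3.30 to 3.92.

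Ir76a (FBgn0260874, chromosome 3L, 19799278 to 19803427, plus strand) was already the highest Ir gene in WT. It had 265, 262 and 234 reads in WT and 941, 699 and 816 in CTCF0, again without overlap. Its level rose 3.07-fold, from 18.1 ± 4.0 to 55.4 ± 5.19 CPM (SD, n = 3 each), with a log2 fold change of 1.62 (standard error 0.200, edgeR adjusted p = 0.00410), and it was called in all 6 fits without 1 library, at 1.5 to 1.78. Some 297 bases (14.1%) of its exons are shared with CG14102 on the opposite strand, which had 34 to 72 reads in WT and 66 to 91 in CTCF0.

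The other 8 tested genes did not pass. Ir68a came nearest, with 13, 14 and 10 reads in WT and 43, 24 and 40 in CTCF0. These groups did not overlap, but its log2 fold change of 1.47 (standard error 0.348) had an edgeR adjusted p of 0.0772 and passed only when CTCF0 replicate 2 was left out (adjusted p = 0.026). Gr61a had 237, 212 and 189 reads in WT and 251, 211 and 183 in CTCF0, a log2 fold change of −0.05. The remaining log2 fold changes were 0.72 for Ir51b, 0.53 for Or45a, 0.28 for the co-receptor Ir25a, −0.27 for Ir62a, −0.17 for Ir93a and 0.00 for Or43b.

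**Figure D3:**
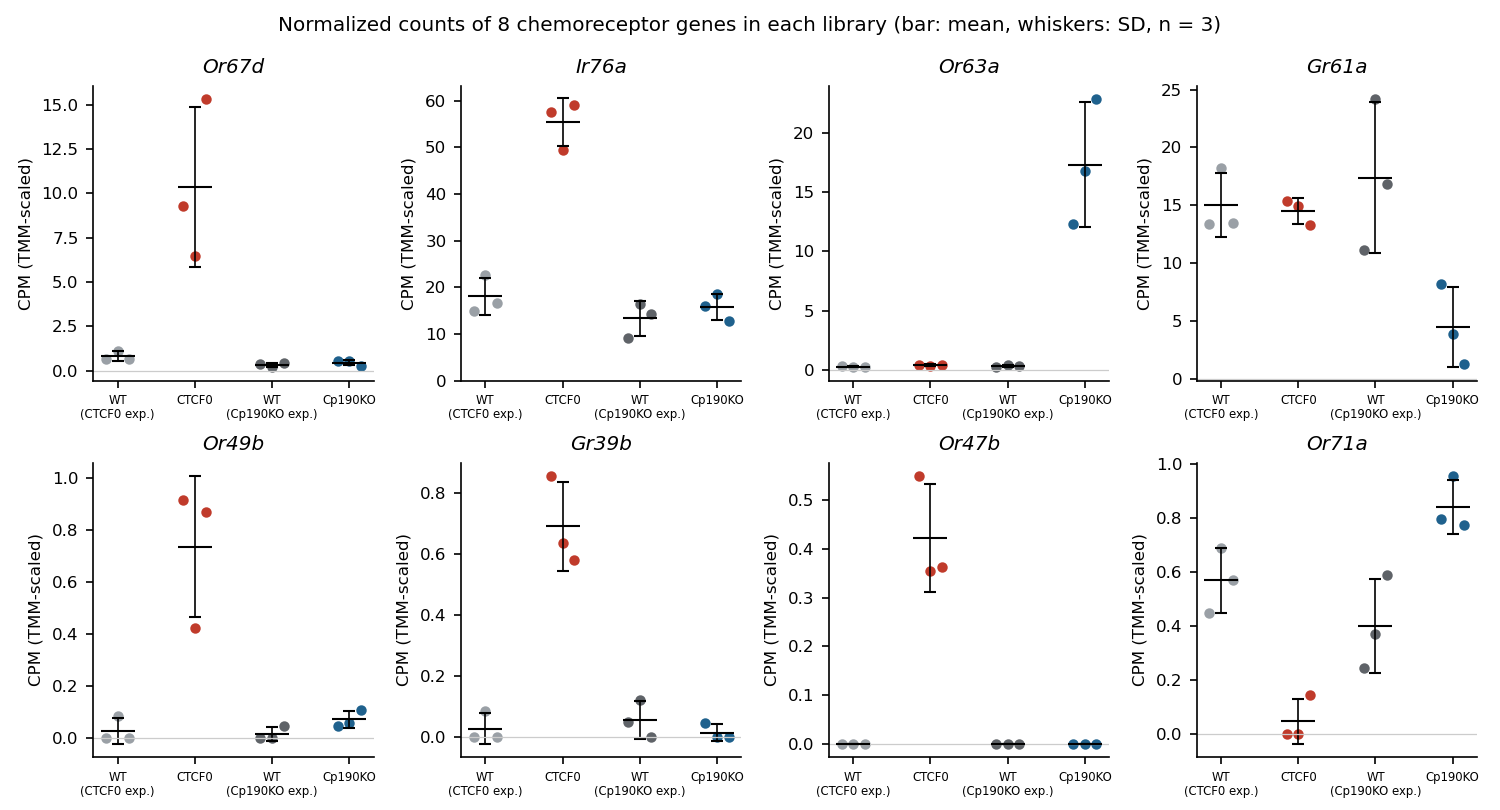
Level in CPM (TMM-scaled, vertical axis of its own for each gene) of 8 chemoreceptor genes in each library, by group, with the mean and SD of n = 3. Or67d and Ir76a lie higher in CTCF0 than in its WT, Or63a lies at 12.3 to 22.8 CPM in the libraries labelled Cp190KO against 0.246 to 0.370 CPM in their WT, and Or49b, Gr39b, Or47b and Or71a lie under 1 CPM in every library.

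With no filter beyond 1 read, 118 chemoreceptor genes could be fitted in the CTCF0 experiment and 7 (5.93%) were called, 6 of them higher, against 2.69% of all 14203 genes in that fit, 1.84% higher and 0.845% lower. Besides Or67d and Ir76a, the genes called higher were Or49b, Gr39b, Ir51a and Or47b. Or49b, an antennal odorant receptor (chromosome 2R, 12842665 to 12844704, plus strand), had 0, 1 and 0 reads in WT and 15, 6 and 12 in CTCF0. The ratio of its summed levels was 32.4, with a 95% counting interval from 5.42 to 1316, and its fitted log2 fold change was 4.54 (edgeR adjusted p = 0.0058). Gr39b, a gustatory receptor (chromosome 2L, 21367908 to 21369706, minus strand), had 0, 1 and 0 reads in WT and 14, 9 and 8 in CTCF0, a ratio of 30.4 (5.06 to 1239, edgeR adjusted p = 0.00583). In both genes every CTCF0 library was above every WT library, and the width of the intervals reflects a single WT read.

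Ir51a, annotated as a pseudogene (chromosome 2R, 15204654 to 15206334, plus strand), had 0, 1 and 6 reads in WT and 37, 15 and 21 in CTCF0, a log2 fold change of 3.23 (standard error 0.668, edgeR adjusted p = 0.00899). Its neighbouring gene Ir51b, which is protein coding, had 29, 15 and 20 reads in WT and 39, 18 and 49 in CTCF0, with overlapping groups. Or47b, a pheromone receptor for fatty acid methyl esters (chromosome 2R, 11319710 to 11321312, minus strand), had no read in WT and 9, 5 and 5 reads in CTCF0. Against a floor of 3 reads per WT library this was at least 1.98-fold higher. Its call (edgeR adjusted p = 0.0158) was lost with DESeq2, which called 2.86% of the same genes (adjusted p = 0.0573), and without WT replicate 1 (0.0581) or CTCF0 replicate 1 (0.0582).

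A single chemoreceptor gene was called lower in CTCF0. Or71a, an odorant receptor of the maxillary palp that lies inside the gene Plp (chromosome 3L, 15076907 to 15078447, minus strand), had 8 reads in each WT library and 0, 0 and 2 in CTCF0. The ratio of WT to CTCF0 was 12.2, with a counting interval from 3.04 to 107 (log2 fold change −3.42, edgeR adjusted p = 0.0384). The call was lost with DESeq2 (adjusted p = 0.154) and without WT replicate 1 (0.0558), WT replicate 3 (0.0593) or CTCF0 replicate 1 (0.138). In the other experiment Or71a had 5, 6 and 12 reads in WT and 17, 16 and 14 in the libraries labelled Cp190KO.

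Gain of reads was also counted without a model, as at most 3 reads in all 3 WT libraries and more than 3 in at least 2 of 3 mutant libraries. Of 151 chemoreceptor genes at or under 3 reads in every WT library, 10 (6.62%) met this rule in CTCF0, against 3.57% of all genes that started from the same floor. They were Gr39b, Or47b and Or49b, described above, and Gr8a, Gr68a, Gr98d, Or1a, Or22a, Or22b and Or56a. Gr8a, a receptor for the plant toxin L-canavanine, had 1, 0 and 0 reads in WT and 10, 4 and 3 in CTCF0 (edgeR adjusted p = 0.0782). Or22a, the receptor for ethyl hexanoate, had 1, 1 and 2 reads in WT and 9, 3 and 12 in CTCF0 (adjusted p = 0.119). Or22b, which lies 540 bases from Or22a and is co-expressed with it in the antenna, had 2, 2 and 1 reads in WT and 5, 2 and 7 in CTCF0. Or22b overlapped between the groups, whereas Gr8a and Or22a did not.

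The last gaining genes rested on still fewer reads. Gr98d had 0, 1 and 1 reads in WT and 6, 1 and 7 in CTCF0, and Gr68a, which is known from male courtship, had 1, 3 and 1 in WT and 4, 3 and 8 in CTCF0. Or1a, a larval odorant receptor, had 2, 2 and 1 reads in WT and 4, 3 and 5 in CTCF0. Or56a, the geosmin receptor, had 1, 0 and 0 reads in WT and 4, 1 and 5 in CTCF0. None of these 4 was called. The count was 3 without CTCF0 replicate 1 and 4 without CTCF0 replicate 3. The mirror rule for loss was met by 4 of 143 genes (2.80%), against 1.24% of all genes at the floor in CTCF0: Or71a, Gr66a (8, 7 and 7 reads in WT and 2, 3 and 2 in CTCF0), Or19b (9, 5 and 4, then 2, 2 and 3) and Or22c, a larval odorant receptor (2, 5 and 4, then 1, 2 and 3). Groups that did not overlap were seen for 17 chemoreceptor genes higher and 3 lower in CTCF0, where 9.16% and 6.03% of all genes in the fit did so. An unadjusted p under 0.05 was reached by 13 chemoreceptor genes higher and 3 lower, against 7.05% and 3.77% of all genes. With 3 libraries against 3 an exact permutation test cannot go below p = 0.1.

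Some genes next to the called chemoreceptor genes were called in CTCF0 as well. Of the 14 nearest genes on either side of the 7 called genes, 4 were called higher and 1 lower in the fit with no filter beyond 1 read, in which 2.69% of all genes were called. Unless stated, values of single neighbours come from the 1 CPM fit where they passed its filter and otherwise from the fit with no filter. Beside Or47b, nompA, which encodes a structural protein of mechanosensory organs and lies 1033 bases away, had 8, 3 and 6 reads in WT and 311, 223 and 177 in CTCF0 (log2 fold change 5.32, standard error 0.316, edgeR adjusted p = 7.37e-05). On the other side of Or47b, sha, a gene of epidermal hair formation 3001 bases away, had 0, 0 and 1 reads in WT and 7, 12 and 8 in CTCF0 (edgeR adjusted p = 0.0107). Or47b thus lay between a pair of genes that were also higher.

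Beside Gr39b, CG8665, 1520 bases away on the opposite strand, had 2, 5 and 5 reads in WT and 56, 40 and 52 in CTCF0 (log2 fold change 3.53, edgeR adjusted p = 0.00336), while dtr on the other side, at 619 bases, was not called. Beside Or49b, the cytochrome P450 gene Cyp9h1, 106 bases away, had 138, 131 and 90 reads in WT and 352, 331 and 407 in CTCF0 (log2 fold change 1.55, edgeR adjusted p = 0.0163), while CG17575 was not called. Both genes thus had 1 neighbour that was higher and 1 that was not called. By contrast, the close neighbours of Ir76a, SREBP at 298 bases and TORIP at 310 bases, had log2 fold changes of −0.10 and −0.15 and were not called, and CG11807 at 187 bases and row at 192 bases from Ir51a were not called either.

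Or67d differed from its nearest neighbours. The noncoding gene lncRNA:CR45242, 2850 bases away, had 272, 242 and 269 reads in WT and 121, 67 and 167 in CTCF0, a log2 fold change of −1.21 in the fit with no filter beyond 1 read (edgeR adjusted p = 0.030) that missed the threshold under the 1 CPM filter (adjusted p = 0.145). On the other side lncRNA:CR46003, 12320 bases away, had a log2 fold change of −0.20. Beyond lncRNA:CR45242 on the same side, can (3L, 10263909 to 10267111), a gene of the male germline, had 20, 17 and 12 reads in WT and 145, 59 and 212 in CTCF0 (log2 fold change 3.05, edgeR adjusted p = 0.0156). It was named because it was among the testis markers. Further along that side, beside Or67c, lay the noncoding gene lncRNA:CR44539 (3L, 10246790 to 10247771). It had no read in WT and 17, 20 and 22 in CTCF0 (log2 fold change 7.30, edgeR adjusted p = 0.00602). On the other side of Or67c, lncRNA:CR44541 was not called. Replicate 2 was the lowest and replicate 3 the highest CTCF0 library for both Or67d and can. The CNS neuron markers elav, nSyb, brp, Syt1 and Rdl had the same order, so it was not particular to Or67d and can. Counts per gene do not show from which promoter a read over these exons came. The libraries were strand-specific, but the counting was not stated to use strand. Reads of can or Or67d and of another RNA over their exons, on either strand, therefore cannot be told apart in these counts. By RNA in situ hybridization the paper reports a transcript antisense to can in the CNS of CTCF0 larvae, normally absent in WT. From its RNA-seq the paper also names Or67d among genes increased in CTCF0 CNSs. At the same locus it shows a cryptic transcript running left to right, which is the strand of Or67d.

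**Figure D4:**
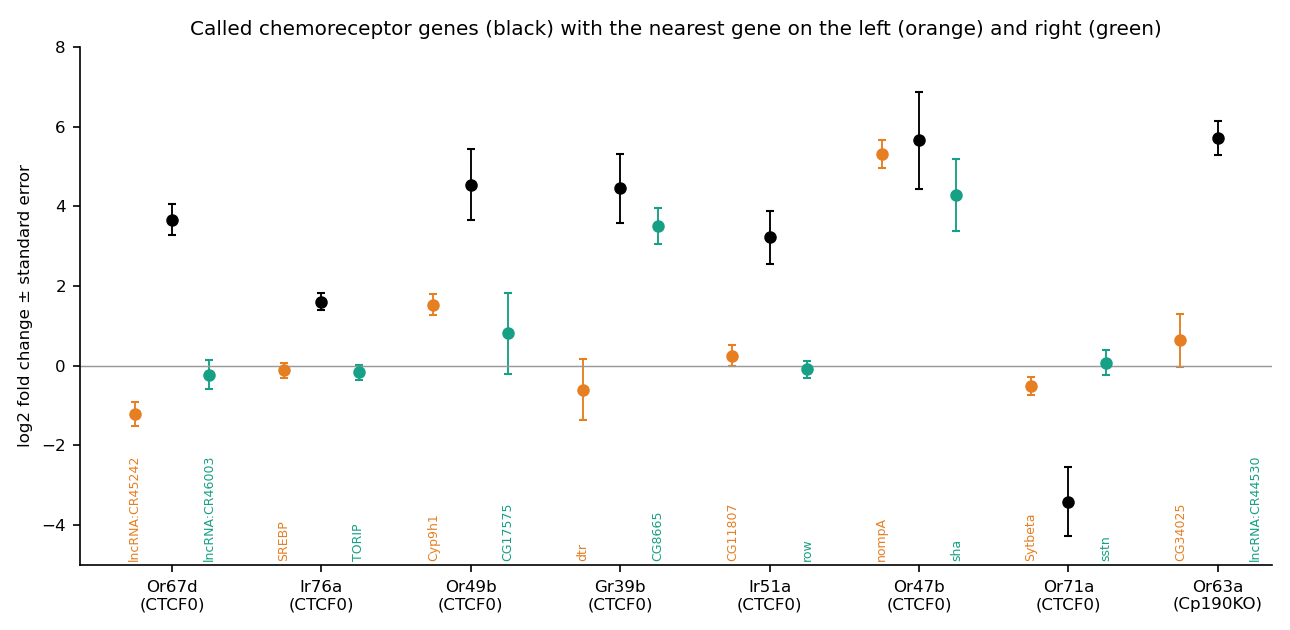
Log2 fold change against WT (fits with no filter beyond 1 read, vertical axis) of 7 chemoreceptor genes in CTCF0 and of Or63a in the libraries labelled Cp190KO (black), and of the nearest gene on the left (orange) and right (green), with bars of 1 standard error. The genes beside Or47b lie well above 0, those beside Ir76a near 0, and a neighbour of Or63a without reads has no point.

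In the libraries labelled Cp190KO, Or63a rose far above its WT level, and no other chemoreceptor gene was called by edgeR in the 6 libraries of that experiment. Or63a (FBgn0035382, chromosome 3L, 2961534 to 2963788, plus strand), an odorant receptor known from the larval olfactory organ, had 5, 6 and 7 reads in WT and 262, 281 and 413 reads in the libraries labelled Cp190KO. All 3 lay far above every WT library, and the library labelled replicate 3, which lacked low counts, was the highest. The level rose 54.1-fold, from 0.320 ± 0.0652 to 17.3 ± 5.29 CPM (SD, n = 3 each), with a log2 fold change of 5.74 (standard error 0.393, edgeR adjusted p = 0.00206). It was 1 of 9 chemoreceptor genes tested and the only one called, while 2.41% of all 8599 genes tested were called and 1.38% were called higher. Or63a passed the 1 CPM filter only through the libraries labelled Cp190KO, and was therefore not tested when any of them was left out. In the fit with no filter beyond 1 read it was called in all 6 fits without 1 library, at log2 fold changes of 5.43 to 5.92, and had 5.43 (edgeR adjusted p = 1.52e-05) without replicate 3.

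Of the 2 nearest genes of Or63a, 1 had reads in this experiment, and it was not called. CG34025, 484 bases from Or63a, had 9, 17 and 7 reads in WT and 18, 11 and 25 in the libraries labelled Cp190KO. Its log2 fold change of 0.64 had a standard error of 0.669 (edgeR adjusted p = 0.727), so a moderate rise could not be told from none. The noncoding gene lncRNA:CR44530, 11729 bases away on the other side, had no read in these libraries and carries no information. In the CTCF0 experiment Or63a had 5, 3 and 3 reads in WT and 7, 5 and 6 in CTCF0.

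Gr61a was lower in every library labelled Cp190KO than in every WT library of that experiment, but the edgeR test on those 6 libraries did not pass. It had 227, 392 and 343 reads in WT and 174, 65 and 24 in the libraries labelled Cp190KO, without overlap, and its level went from 17.4 ± 6.51 to 4.46 ± 3.45 CPM (SD, n = 3 each). The log2 fold change of −1.95 (standard error 0.627) did not pass in edgeR (adjusted p = 0.243), while DESeq2, which called 5.12% of all genes, gave −2.00 with an adjusted p of 0.0191, and edgeR with all 12 libraries in 1 fit gave −2.00 with an adjusted p of 0.0331. Without the library labelled replicate 3, the lowest of the group, the value was −1.51 (edgeR adjusted p = 0.377).

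The other 7 tested genes were not called. Gr28b, a gustatory receptor gene with isoforms for heat sensing, had 16, 18 and 18 reads in WT and 36, 35 and 28 in the libraries labelled Cp190KO, a log2 fold change of 0.94 (edgeR adjusted p = 0.317). Ir76a had 186, 268 and 293 reads in WT and 343, 309 and 231 in the libraries labelled Cp190KO, overlapping, with a log2 fold change of 0.24. Log2 fold changes were 0.28 for Or43b, 0.34 for Or85f, 0.11 for Ir93a, −0.27 for Ir51b and −1.35 for Ir62a. Ir62a had 24, 19 and 0 reads in the libraries labelled Cp190KO and Ir51b had 62, 13 and 3. In fits without 1 library the log2 fold changes ran from −1.78 to −0.768 for Ir62a and from −1.74 to 0.250 for Ir51b.

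Summed reads on Or genes were 7.55 to 9.05 CPM in WT and 22.3 to 35.0 in the libraries labelled Cp190KO, Gr genes 15.8 to 30.1 and 9.71 to 18.1, and Ir genes 17.2 to 27.4 and 23.3 to 27.2. Only the Or ranges did not overlap. Without Ir76a, Or67d, Or63a and Gr61a the sums over all families were 19.7 to 26.3 in WT and 20.3 to 32.4 in the libraries labelled Cp190KO.

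With no filter beyond 1 read, 1 of 120 chemoreceptor genes (0.833%) was called in this experiment, Or63a again, against 2.03% of all 13845 genes in that fit. An unadjusted p under 0.05 was reached by 6 genes higher and 3 lower, against 5.48% and 5.14% of all genes. Gr64a, a sugar receptor gene, had 1, 0 and 0 reads in WT and 13, 6 and 6 in the libraries labelled Cp190KO, a ratio of 25.4 with a counting interval from 4.15 to 1041, but its edgeR adjusted p was 0.172. Every library labelled Cp190KO was above every WT library for Gr64a.

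Gain of reads was met by 2 of 141 chemoreceptor genes (1.42%), against 3.37% of all genes at the floor in this WT: Gr64a and Gr77a, which had 1, 2 and 1 reads in WT and 5, 1 and 15 in the libraries labelled Cp190KO. Without the library labelled replicate 3 only Gr64a met the rule. Loss was met by 4 of 132 genes (3.03%), against 2.28% of all genes. Ir31a, an antennal ionotropic receptor, had 9, 3 and 7 reads in WT and 3, 2 and 0 in the libraries labelled Cp190KO. Ir60e had 1, 6 and 4 reads in WT and none in the libraries labelled Cp190KO, at least 1.27-fold lower against a floor of 3 reads per library. Ir51a went from 0, 4 and 8 reads to 0, 1 and 0, and the odorant receptor gene Or67c from 0, 5 and 4 to 1, 0 and 0. None of these genes was called. Without the library labelled replicate 3 the count of losses was 5, with Ir76b added. Groups did not overlap for 6 chemoreceptor genes higher and 6 lower, where 7.76% and 8.39% of all genes in the fit did so. Without the library labelled replicate 3 the counts were 15 and 7. These cannot be set against those shares, because groups separate more readily with fewer libraries. The share of all genes was not counted in that setting.

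The change in CTCF0 and the change in the libraries labelled Cp190KO were compared in a fit of all 12 libraries. The difference was called for 2 of 15 chemoreceptor genes tested, against 1.42% of 8954 genes. Or63a and Or67d, the genes called, passed the 1 CPM filter only through mutant libraries where they were high. The 15 tested genes therefore do not stand for the families. For Or63a the CTCF0 change was lower by a log2 difference of −5.08 (standard error 0.632, edgeR adjusted p = 0.000781), called in all 9 fits without 1 library in which it was tested. For Or67d, which had 7, 3 and 9 reads in WT and 11, 9 and 5 in the libraries labelled Cp190KO, the CTCF0 change was higher by 3.26 (standard error 0.666, edgeR adjusted p = 0.0259). This call was lost in 7 of 12 fits without 1 library, at adjusted p of up to 0.129: those without WT replicate 1 or 3 of either experiment, CTCF0 replicate 1 or 3, or the library labelled Cp190KO replicate 3. For Ir76a the difference of 1.39 (standard error 0.338) had an edgeR adjusted p of 0.0732, and of 0.0402 with no filter beyond 1 read.

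In that fit with no filter, 3 of 139 chemoreceptor genes were called, against 0.947% of 14787 genes. These were Or63a, Or67d and Ir76a. Ir51a (6.36, adjusted p = 0.0679) and Or71a (−4.46, adjusted p = 0.0615) missed the threshold in edgeR, whereas both were called with DESeq2 (adjusted p = 0.0247 and 0.0403). Gr61a under the 1 CPM filter had 1.93 (edgeR adjusted p = 0.339). No chemoreceptor gene was called both in CTCF0 and in the libraries labelled Cp190KO. With 1 such gene called in the latter this says little, and the share of all genes called in both was not counted. Or49b had 0, 0 and 1 reads in WT and 1, 1 and 2 in the libraries labelled Cp190KO, Gr39b 1, 2 and 0 and then 1, 0 and 0, and Or47b had no read in either group of that experiment.

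**Figure D5:**
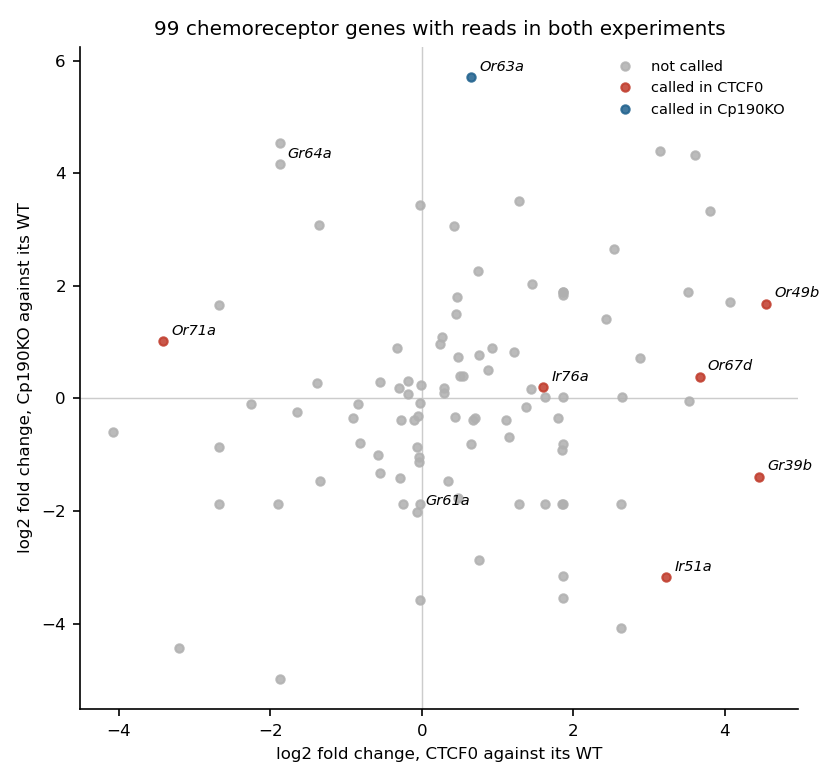
Log2 fold change in CTCF0 (horizontal axis) against that in the libraries labelled Cp190KO (vertical axis) for the 99 chemoreceptor genes in both fits with no filter beyond 1 read. Or63a stands alone high on the vertical axis, at 5.71, and Or67d stands at 3.67 on the horizontal axis.

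Other genes of chemosensory signalling were not called in CTCF0 or in the libraries labelled Cp190KO, where 2.81% and 2.41% of all genes tested were called. With so few genes tested, no call lies near these shares. None of the 15 co-receptors and signalling partners (8 tested in CTCF0 and 7 in the Cp190KO experiment), 51 odorant-binding protein genes (4 and 5 tested), 12 transcription factors of olfactory neuron identity (10 and 10 tested), 9 Myb-MuvB and dREAM subunits (all tested), which are known to regulate carbon dioxide receptor genes in olfactory neurons, and 13 other ionotropic glutamate receptor genes (10 and 8 tested) passed the threshold. Orco had 55, 50 and 35 reads in WT and 33, 13 and 22 in CTCF0, all lower than in WT, with a log2 fold change of −1.11 (edgeR adjusted p = 0.221). In the other experiment Orco had 74, 70 and 40 reads in WT and 34, 55 and 71 in the libraries labelled Cp190KO, which overlapped.

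The Ir co-receptors were low throughout. Ir8a had at most 6 reads in any library, Ir76b at most 9 and Ir25a 5 to 34. Ir25a had 14, 19 and 10 reads in WT and 20, 19 and 16 in CTCF0, and 5, 12 and 11 in WT and 15, 12 and 34 in the libraries labelled Cp190KO.

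Markers of other cells were counted beside these results. Of the 5 genes listed as markers of peripheral chemosensory organs (Orco, Snmp1, Obp56a, Obp99a and lush), none was called. The gene lush had no read in any library, Snmp1 had at most 4 and Obp56a 4 to 19. Orco is given above, with every CTCF0 library below every WT library. The summed level of the 5 was 2655 to 3127 CPM in WT and 2365 to 3465 CPM in CTCF0, and 2207 to 3439 CPM in WT and 2687 to 5442 CPM in the libraries labelled Cp190KO. These sums were nearly all Obp99a (2862 ± 240.3 CPM in WT and 2792 ± 589 CPM in CTCF0, SD, n = 3 each) and carry little on the other markers. All 5 neuronal markers of the CNS passed the 1 CPM filter.

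In CTCF0, 1 of 3 muscle markers (Mlc2, log2 fold change 1.5, edgeR adjusted p = 0.0306) and 1 of 3 ring gland markers (Akh, 1.15, adjusted p = 0.00964) were higher, and of 4 testis germline markers can, with the limit on strand given above, was higher and bam lower (−2.03, adjusted p = 0.00812). The summed levels were 18.1 to 27.0 CPM in WT and 42.9 to 50.1 CPM in CTCF0 for muscle, 89.9 to 130 and 115.2 to 153 for ring gland, and 4.63 to 5.26 and 5.03 to 16.8 for testis germline. The lists for CNS neurons, neuroblasts, glia, imaginal discs, fat body, trachea, hemocytes and salivary gland held no called gene in CTCF0, but the sums of some did not overlap between the groups. The 3 hemocyte markers summed to 0.356 to 1.38 CPM in WT and 1.84 to 8.62 CPM in CTCF0, and the 3 glial markers to 185 to 197 and 208 to 282 CPM. The hemocyte gene Hml had 4, 14 and 2 reads in WT and 133, 21 and 24 in CTCF0 (log2 fold change 2.97, edgeR adjusted p = 0.189).

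No marker list held a called gene in the libraries labelled Cp190KO. Sums that did not overlap there were those of imaginal discs, at 12.4 to 15.4 CPM in WT and 17.1 to 17.9 CPM in the libraries labelled Cp190KO, and of testis germline, at 6.05 to 8.10 and 2.06 to 4.73 CPM. The disc marker gl had 38, 32 and 43 reads in WT and 78, 109 and 87 in the libraries labelled Cp190KO (log2 fold change 1.33, edgeR adjusted p = 0.104). Hml had 3, 4 and 6 reads in WT and 18, 74 and 14 in the libraries labelled Cp190KO (log2 fold change 3.05 with no filter beyond 1 read, edgeR adjusted p = 0.0668). The part of these cells in the values of chemoreceptor genes was not tested.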

How the data were processed

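The deposited files held counts of reads per gene for 12 libraries. As the authors describe, reads were mapped to dm6 with Micmap and counted on FlyBase r6.26 gene models with htseq-count 0.9.1. The strand and overlap options were not given in the sources used here. Summary rows for reads on no gene or on several genes, 22.6% to 34.8% of each file, were left out.

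Gene symbols, positions and exonic lengths came from the Ensembl 115 annotation of BDGP6.54, which shares dm6 coordinates. Of 17510 gene identifiers 17405 had a symbol. Counts were tested as deposited with the quasi-likelihood test of edgeR 4.0.16 (R 4.3.3, TMM factors, robust fit, two-sided, Benjamini-Hochberg adjustment over all genes tested), with genes of at least 1 CPM in at least 3 libraries. Chemoreceptor genes under this filter took their values from a fit of all genes with at least 1 read. Levels in CPM were scaled by TMM. The difference between the mutants was a contrast over all 12 libraries. Intervals of read ratios were exact 95% binomial intervals and, like the floor of 3 reads, cover counting error only. DESeq2 1.42.0, other scalings and filters, a replicate block and each library left out were alternatives, and the scripts were tested on simulated data. Named genes were those tested, those gaining or losing reads, the 5 highest of each family in either WT, co-receptors, targeted genes and nearest or overlapping neighbours. The genes, lists and rules were chosen with earlier results of these data known. The symbol phm of the ring gland list was read as phtm, its current form. P-values measure the spread between pooled libraries of 60 CNSs.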

Additional observations from a re-analysis of the deposited data

Results flagged for a closer look

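The change of Or63a differed between the mutants by a log2 difference of −5.08 (edgeR adjusted p = 0.000781): 5, 3 and 3 reads in WT and 7, 5 and 6 in CTCF0, but 5, 6 and 7 in WT and 262, 281 and 413 in the libraries labelled Cp190KO. The change of Or67d differed by 3.26 in the other direction (edgeR adjusted p = 0.0259): 12, 13 and 9 reads in WT and 152, 91 and 211 in CTCF0, but 7, 3 and 9 in WT and 11, 9 and 5 in the libraries labelled Cp190KO. Both were picked out by the test of the difference between the changes, and no explanation was tested. The difference for Or67d was called in only 5 of 12 fits without 1 library. That for Or63a was called in all 9 such fits that tested it.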

How the results depend on the processing

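Or67d and Ir76a in CTCF0 and Or63a in the libraries labelled Cp190KO were called in every alternative that tested them. The number of genes called in CTCF0 was 245, and 392 with DESeq2, 382 with no filter beyond 1 read and 90 to 556 without 1 library. In the libraries labelled Cp190KO it was 207, and 440 with DESeq2, 366 with all 12 libraries in 1 fit and 24 to 318 without 1 library. The difference was called for 127 genes, for 213 with DESeq2 and for 69 to 141 without 1 library. Chemoreceptor genes called numbered 2 in CTCF0, 7 with no filter and 2 to 3 without 1 library. They numbered 1 in the libraries labelled Cp190KO, 2 with DESeq2 or all 12 libraries (Gr61a added, log2 fold change −2.00 in both) and 0 to 1 without 1 library, 0 because the filter then removed Or63a. For the difference they numbered 2, and 0 to 2 without 1 library.

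Genes detected in WT went from 29 to 63 with any read and 13 with at least 10 reads, and to 24 to 26 without 1 library. In the other WT they went from 33 to 63, 14, 21 if all 3 libraries had to pass, and 21 to 27 without 1 library. Gains in CTCF0 went from 10 to 2 with at least 10 reads, 3 in all 3 libraries and 3 to 11 without 1 library. Losses went from 4 to 0 with at least 10 reads and 3 to 4 without 1 library. In the libraries labelled Cp190KO gains went from 2 to 5 with any read, 4 with at least 10 reads, 1 in all 3 libraries and 1 to 4 without 1 library. Losses went from 4 to 0 with at least 10 reads or in all 3 libraries, 1 over 0.3 CPM and 0 to 7 without 1 library. Depth limits all genes at or near 3 reads. Causes were not tested beyond the filter named above.

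Replicate numbers did not pair the samples: same-numbered libraries had correlations of −0.18, −0.53 and −0.50 in the CTCF0 experiment and 0.08, 0.51 and −0.01 in the other. A fit with a replicate block called 145 genes in CTCF0, 89 in the libraries labelled Cp190KO and 60 for the difference. For the difference 1 chemoreceptor gene remained called, Or63a, while Or67d was no longer called (log2 difference 3.19, edgeR adjusted p = 0.145). Among genes fitted with no filter, the block moved Or71a in CTCF0 past the threshold (adjusted p = 0.0648) and brought the difference of Ir51a under it (adjusted p = 0.0172).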
